A study of Homo sapiens with 6 samples.

Results

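The genes examined were 10 members of the transforming growth factor beta (TGF-β) family and its signalling machinery, chosen by symbol from the 59008 gene symbols measured. They were the TGF-β ligand genes TGFB1, TGFB2 and TGFB3, the receptor genes TGFBR1 and TGFBR2, the activin A subunit gene INHBA, the inhibitory SMAD gene SMAD7, the bone morphogenetic protein (BMP) genes BMP2 and BMP4, and the divergent family member GDF15. RNA was sequenced from untreated parental cells, polyploid giant cancer cells (PGCCs) and daughter cells, with 1 library per condition, in the established cell lines Hey and SKOV3, both from human ovarian cancer. PGCCs and daughter cells had received 500 nM paclitaxel, which keeps microtubules from disassembling and arrests cells in mitosis, for 16 hours, followed by 3 days of recovery in regular medium for PGCCs and 30 days for daughter cells. The title of the SKOV3 PGCC library gives day 7, while its treatment label gives 3 days, so the recovery time of that library is uncertain. Each daughter library is labelled as clone 1 and so represents a single clone of its line. Levels were given by the authors as TPM values (transcripts per 1000000), an abundance per transcript length that is scaled within each library, and they carry no read counts.

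Ligands of this family are secreted as precursors, and TGF-β is stored in a latent form outside the cell until it is released. An active ligand brings type II and type I receptor kinases together, and the type I receptor phosphorylates SMAD proteins, SMAD2 and SMAD3 after TGF-β or activin and SMAD1, SMAD5 and SMAD9 after BMPs, which then enter the nucleus with SMAD4. In carcinoma cells the TGF-β branch is known both for slowing proliferation and for driving epithelial-mesenchymal transition and matrix production, and activin A and GDF15 are secreted factors known from ovarian cancer and from wasting.

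The 6 libraries had 19920 to 25370 genes with a TPM above 0, and mitochondrial genes took 2.64% to 14.8% of the TPM, lowest in Hey parental cells and highest in SKOV3 daughter cells. The lines were told apart by ERBB2, the receptor gene amplified in SKOV3, at 1127 to 1778 TPM in SKOV3 and 8.20 to 14.1 in Hey. The 5 epithelial markers summed to 723 to 2231 TPM. In Hey, however, the defining markers CDH1 and EPCAM were at 0 to 0.0283 and 0.369 to 1.43 TPM. The 4 ovarian markers summed to 59.2 to 117 TPM in Hey and 100 to 185 in SKOV3. In Hey, PAX8 was at 54.7 to 94.4 TPM, WT1 at 0.530 to 4.10, MSLN at 0.386 to 23.3 and MUC16 at most 0.0322. Between SKOV3 parental and daughter cells, MSLN went from 33.1 to 1.85 TPM, MUC16 from 1.15 to 0.00564 and EPCAM from 68.8 to 8.15. KRT19 went from 292 to 80.2 TPM and KRT8 from 411 to 319. PAX8 (65.6 to 112 TPM), WT1 (0.545 to 2.91), CDH1 (1.47 to 8.35) and KRT18 (220 to 414) went up. The 4 immune markers summed to 0.265 to 1.05 TPM with CD3E at 0 in every library. The 6 fibroblast markers summed to 0.133 to 27.3 TPM, highest in SKOV3 daughter cells. From SKOV3 parental to daughter cells, COL1A1 went from 2.35 to 16.3 TPM and PDGFRB from 0.280 to 5.35. LUM went down from 8.84 to 5.56 TPM, DCN from 1.33 to 0.0292 and COL1A2 from 0.103 to 0.0137. The 5 markers of dividing cells summed to 718, 158 and 916 TPM in Hey parental cells, PGCCs and daughter cells, and to 1746, 830 and 940 in SKOV3. In bulk RNA, fewer cells of a kind and less RNA per cell cannot be told apart.

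The order of the 10 genes by level differed between the lines. In Hey parental cells TGFBR2 was highest, at 188 TPM, followed by INHBA (51.7), TGFBR1 (24.4) and TGFB1 (20.6), and TGFB3 was lowest, at 0.404. In SKOV3 parental cells TGFBR2 (34.1 TPM) was followed by SMAD7 (19.5), TGFBR1 (15.5) and TGFB1 (11.9), and INHBA (0.484) lay beside TGFB3 (0.416) at the bottom. With 1 library per condition no spread is known, so neighbours in these orders cannot be separated. The mean TPM over the 6 libraries was at least 1 for 9 of the 10 genes, and these were read against the 14988 genes of the table that passed the same filter. TGFB3, with a mean of 0.709, fell below this filter, and its changes are given as values only.

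**Figure D1:**
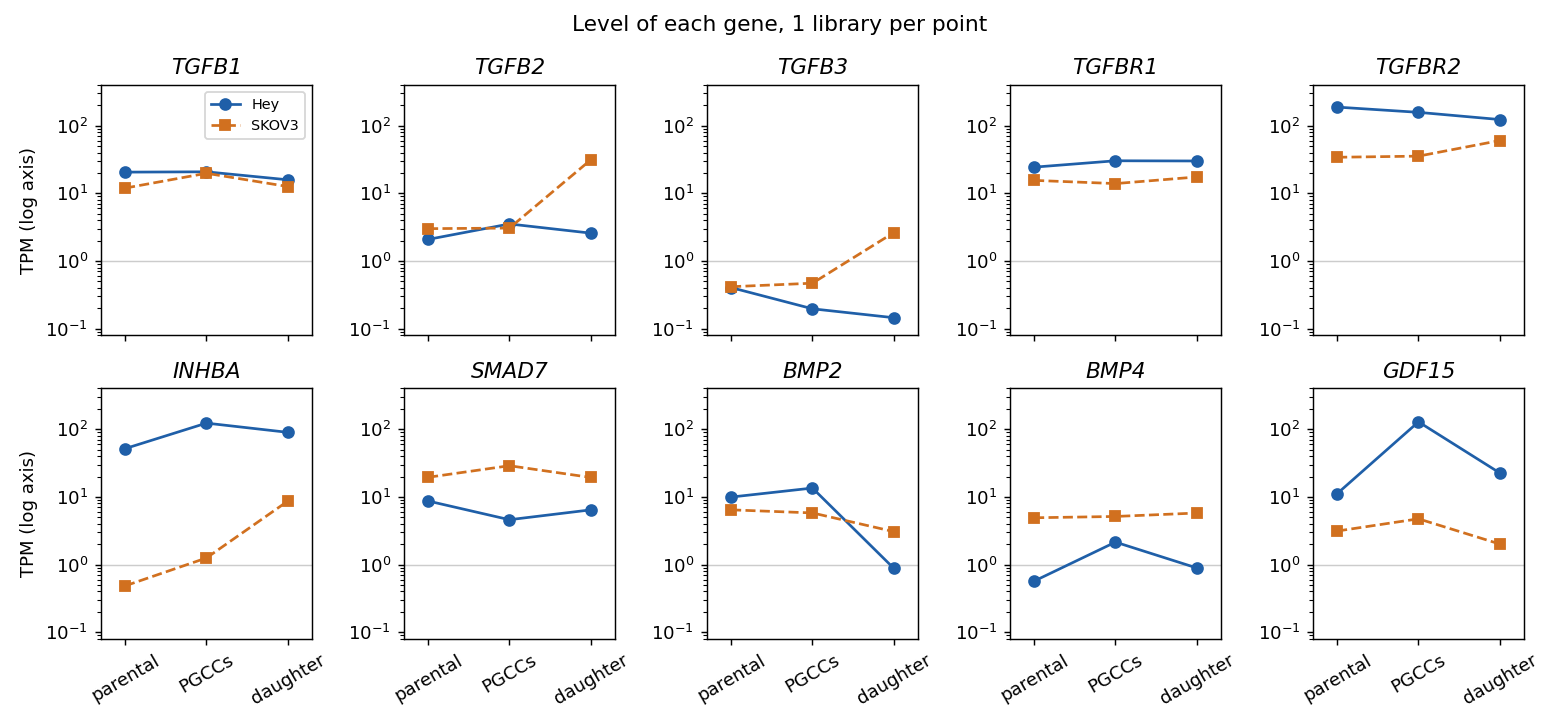
TPM (log axis) of the 10 genes in each of the 3 states of Hey (blue circles) and SKOV3 (orange squares), with 1 library per point and a grey line at 1 TPM. GDF15 peaked in Hey PGCCs at 129 TPM, TGFB2 reached 31.3 TPM in SKOV3 daughter cells, and BMP2 dropped to 0.88 TPM in Hey daughter cells.

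TGFB1, TGFB2 and TGFB3 encode the TGF-β ligands, which bind the same receptor pair, with TGF-β2 depending more on the co-receptor encoded by TGFBR3. TGFB1 was at 20.6, 20.8 and 15.9 TPM in Hey parental cells, PGCCs and daughter cells and at 11.9, 19.8 and 12.6 in the SKOV3 libraries. Its level thus stayed within a narrow range, with SKOV3 PGCCs above the other SKOV3 libraries by less than 2-fold. TGFB2 was at 2.08, 3.53 and 2.58 TPM in the Hey libraries and at 3.00, 3.06 and 31.3 in SKOV3. SKOV3 daughter cells stood apart from the other 5 libraries, at 10.4 times the TPM of SKOV3 parental cells. On the log2(TPM + 1) scale this was a difference of 3.01, rank 242 from the highest of the 14988 genes, and it was 2.78 to 3.34 over the alternative scalings, pseudocount and trend correction. TGFB3 was at 0.404, 0.196 and 0.145 TPM in Hey and at 0.416, 0.469 and 2.63 in SKOV3, so its highest level was also in SKOV3 daughter cells, 6.30 times the parental TPM.

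The changed balance of ligand genes is clearest in their sum. The summed TPM of the 3 genes was 23.1, 24.5 and 18.6 in Hey parental cells, PGCCs and daughter cells and 15.4, 23.3 and 46.5 in SKOV3. TGFB1 supplied 77.7% to 89.2% of that sum in 5 libraries and 27.1% in SKOV3 daughter cells, where TGFB2 supplied 67.2%. TGFB2 was thus the main TGF-β transcript only in the SKOV3 daughter library among the 6.

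**Figure D2:**
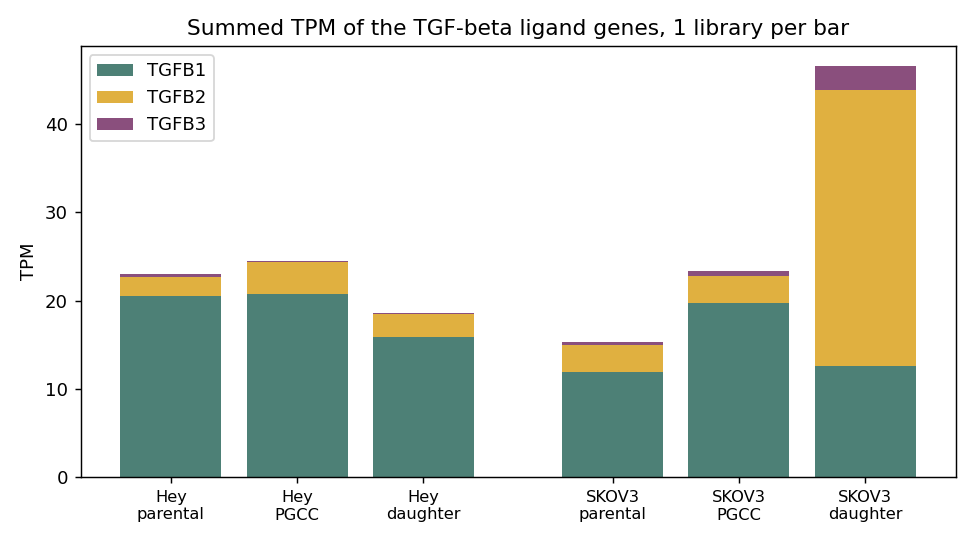
Stacked TPM of TGFB1, TGFB2 and TGFB3 in each of the 6 libraries, 1 bar per library. The SKOV3 daughter bar reaches 46.5 TPM, of which 31.3 TPM is TGFB2, while TGFB1 is the largest segment of the other 5 bars.

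TGFB2 and INHBA, past 2-fold between SKOV3 daughter and parental cells, and TGFB3, which differed by 1.36 there but lies below the filter, each had a start site with the TATA box letters TATAAA shortly upstream, whereas TGFB1 had none, so these stretches are shown side by side. Each is the 100 bases before an annotated RefSeq start site on GRCh38.p14, read 5′ to 3′ on the gene's strand, with TATAAA in capitals. They are TGFB1 at chr19:41353923-41354022 (minus strand), TGFB2 at chr1:218345236-218345335 (plus strand), the 2 starts of TGFB3 at chr14:75983012-75983111 and chr14:75981996-75982095 (minus strand), and INHBA at chr7:41703091-41703190 (minus strand).
TGFB1: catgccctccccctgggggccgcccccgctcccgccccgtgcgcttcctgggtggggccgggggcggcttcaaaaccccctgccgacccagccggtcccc
TGFB2: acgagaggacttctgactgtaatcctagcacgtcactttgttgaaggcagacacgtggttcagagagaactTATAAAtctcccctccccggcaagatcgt
TGFB3, upstream start: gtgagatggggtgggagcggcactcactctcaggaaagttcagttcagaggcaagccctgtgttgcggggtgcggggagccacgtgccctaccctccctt
TGFB3, downstream start: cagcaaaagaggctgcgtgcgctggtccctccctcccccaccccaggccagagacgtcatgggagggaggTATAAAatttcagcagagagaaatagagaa
INHBA: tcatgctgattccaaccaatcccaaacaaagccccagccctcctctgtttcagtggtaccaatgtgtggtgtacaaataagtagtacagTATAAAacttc
Counted from its first letter, TATAAA began 29 bases before the start of TGFB2, 30 before the downstream start of TGFB3 and 11 before that of INHBA. Promoter windows were found for 9 of the 10 genes (22 windows, of which 8 belong to TGFBR1 and none to BMP2). The letters were also present 29 bases before the GDF15 start and 35 before 1 of the 3 SMAD7 starts. Neither GDF15 (-0.46) nor SMAD7 (-0.01) passed 2-fold between SKOV3 daughter and parental cells, so the letters do not set apart the genes past 2-fold there. Of all 35116 RefSeq windows, 3.51% held TATAAA on the given strand in these 100 bases, against 5 of the 22 windows here. The motif was looked at after the levels were known, and a match is a description of the letters only. Other motifs were searched on both strands of the 250 bases before the start. TGACGTCA (the cyclic AMP response element), GTCTAGAC (the SMAD palindrome) and TGANTCA (the AP-1 site) were in none of the 22 windows, and in 1.65%, 0.182% and 6.57% of all windows. CAGAC, the short SMAD box, was in 11 of the 22 windows (of BMP4, GDF15, SMAD7, TGFB2, TGFB3 and TGFBR1) and in 38.0% of all windows. The TGFB2 stretch also lies over an exon of TGFB2-AS1 on the opposite strand.

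INHBA encodes the βA subunit whose dimer is activin A, a ligand of the activin receptors. Its level was 51.7, 123 and 89.9 TPM in Hey parental cells, PGCCs and daughter cells, and 0.484, 1.25 and 8.64 in SKOV3. All 3 Hey libraries were above all 3 SKOV3 libraries, by 107-fold between parental cells, 98.5-fold between PGCCs and 10.4-fold between daughter cells. The SKOV3 parental and PGCC levels are low, so ratios to them, here and below, rest on an unknown number of reads. Hey PGCCs had 2.38 times the TPM of Hey parental cells, a difference of 1.24 on the log2(TPM + 1) scale. SKOV3 daughter cells had 17.9 times the parental TPM, a log2 difference of 2.70 and rank 334 from the highest, and it was 3.90 with a pseudocount of 0.1 and 2.45 with median ratio scaling. This library also had the highest mitochondrial share, and the difference was 2.86 when mitochondrial genes were left out. INHBB, which encodes the other common activin subunit, was at 0.0153 to 1.08 TPM in the 6 libraries, so INHBA supplied most of the summed activin subunit TPM in each library.

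BMP2 and BMP4 encode ligands of the BMP branch. BMP2 was at 9.94, 13.5 and 0.88 TPM in Hey parental cells, PGCCs and daughter cells and at 6.43, 5.79 and 3.07 in SKOV3. It was lowest in the daughter cells of both lines. Hey parental cells had 11.3 times the TPM of Hey daughter cells, a log2 difference of -2.54 for daughter against parental cells (rank 56 from the lowest of 14988), and Hey PGCCs exceeded daughter cells by 2.95. The SKOV3 differences pointed the same way without reaching 2-fold, -0.87 for daughter against parental cells and 0.74 for PGCCs against daughter cells. BMP4 was at 0.569, 2.15 and 0.890 TPM in Hey and at 4.91, 5.14 and 5.77 in SKOV3. It was lower in every Hey library than in every SKOV3 library, and the Hey PGCC level was above those of the other Hey libraries. The log2 difference of 1.00 between Hey PGCCs and parental cells lay just inside the 2-fold limit and was 0.69 after quantile normalization.

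GDF15 is a secreted stress hormone of the family that signals through GFRAL and RET rather than the classical receptors. Its level was 11.2, 129 and 22.6 TPM in Hey parental cells, PGCCs and daughter cells and 3.13, 4.74 and 2.01 in SKOV3. Hey PGCCs were the single high library, at 11.5 times the TPM of Hey parental cells. The log2 difference of 3.41 was the largest among the 10 genes in this comparison and rank 76 from the highest of 14988, and it was 3.32 to 3.56 over the same alternatives. The same library had the lowest sum of dividing cell markers, 158 TPM, a measure whose part in the GDF15 level was not tested. Hey PGCCs also exceeded Hey daughter cells by 2.46 (rank 187). In SKOV3 the PGCC library was highest as well, by 0.48 over parental and 0.93 over daughter cells, both under 2-fold. After correction for GC content and length these became -0.38 and 0.34, so the direction against parental cells turned. Among PGCCs, the Hey level was 27.1 times that of SKOV3. GFRAL, the GDF15 receptor gene, was listed at 0 in all 6 libraries, and the co-receptor gene RET was at 0 to 1.02 TPM.

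Of the regulators of GDF15, the listed stress genes gave differing values in the lines. MDM2, which encodes a ubiquitin ligase, was at 121, 672 and 269 TPM in Hey parental cells, PGCCs and daughter cells and at 36.3, 18.0 and 51.9 in SKOV3. DDIT3 and ATF3, factors of the integrated stress response, went from 16.7 to 87.9 and from 10.1 to 58.8 TPM between Hey parental cells and PGCCs, and were at 68.7 and 63.0 and at 69.0 and 37.9 in the same SKOV3 libraries. CDKN1A, which encodes the p21 inhibitor of cell cycle kinases, was at 148, 480 and 89.4 TPM in Hey and at 4.76, 6.84 and 3.73 in SKOV3. In this list 4 of 9 genes above the filter were at least 2-fold higher in Hey PGCCs than in parental cells and 1, EGR1, was lower (-2.29). Of all genes, 7.67% were higher and 5.22% lower there. In SKOV3, 1 of the 9 was higher and 0 lower, with 9.94% of all genes higher and 4.96% lower. Whether any of these genes has a part in the GDF15 level was not tested.

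TGFBR1 and TGFBR2 encode the type I and type II receptor kinases for TGF-β. TGFBR1 was at 24.4, 30.3 and 30.1 TPM in Hey parental cells, PGCCs and daughter cells and at 15.5, 13.9 and 17.4 in SKOV3. TGFBR2 was at 188, 157 and 123 TPM in Hey and at 34.1, 35.5 and 60.3 in SKOV3. Every Hey library was above every SKOV3 library for both genes, and no comparison of states within a line reached 2-fold. For TGFBR2, daughter cells differed from parental cells by -0.61 (Hey) and 0.80 (SKOV3), and the ratio of TGFBR2 to TGFBR1 went from 7.72 to 4.10 in Hey and from 2.20 to 3.45 in SKOV3. SMAD7, the inhibitory SMAD that blocks the type I receptor and is itself induced by TGF-β, was at 8.69, 4.60 and 6.43 TPM in Hey and at 19.5, 28.9 and 19.4 in SKOV3. It was higher in every SKOV3 library than in every Hey library. PGCCs had the lowest SMAD7 level of the Hey libraries (-0.79 against parental cells) and the highest of the SKOV3 libraries (0.55), neither past 2-fold.

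In PGCCs compared with parental cells of Hey, 3 of the 9 genes above the filter were at least 2-fold higher (GDF15, INHBA and BMP4) and 0 were lower. Of all 14988 genes, 7.67% were higher and 5.22% lower. In SKOV3, 0 of the 9 were past 2-fold in either direction, where 9.94% of all genes were higher and 4.96% lower. The median difference of the 9 genes was 0.41 in Hey and 0.05 in SKOV3, beside 0 and 0.02 for all genes. At 3-fold, 1 of the 9 (GDF15) was higher and 0 lower in Hey, with 2.95% and 1.71% of all genes, and at 1.5-fold 2 (TGFB1 and INHBA) were higher and 0 lower in SKOV3, with 22.9% and 16.3%.

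In PGCCs compared with daughter cells of Hey, 2 of the 9 were higher (BMP2 and GDF15) and 0 lower, with 8.13% of all genes higher and 9.95% lower. In SKOV3, 0 were higher and 2 lower (TGFB2 by -2.99 and INHBA by -2.10), with 9.25% of all genes higher and 14.6% lower. The medians were 0.37 and -0.14, beside -0.03 and -0.12 for all genes. At 1.5-fold, 3 were higher and 3 lower in SKOV3, with 18.7% and 28% of all genes.

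In daughter cells compared with parental cells of Hey, 0 of the 9 were higher and 1 was lower (BMP2), with 6.31% of all genes higher and 3.73% lower. GDF15 lay just under the limit, at 0.95. In SKOV3, 2 were higher (TGFB2 and INHBA) and 0 lower, with 15.1% of all genes higher and 6.34% lower. The medians were 0.22 and 0.16, beside 0.05 and 0.15 for all genes. At 1.5-fold, 2 were higher and 2 lower in Hey, with 17.2% and 10.7% of all genes, and 3 were higher and 1 lower in SKOV3, with 28.1% and 13.6%. TGFB3, below the filter, differed by 1.36 in SKOV3 daughter against parental cells and by -1.30 in PGCCs against daughter cells. The comparisons within a line share libraries, so a high or low library enters a pair of them.

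**Figure D3:**
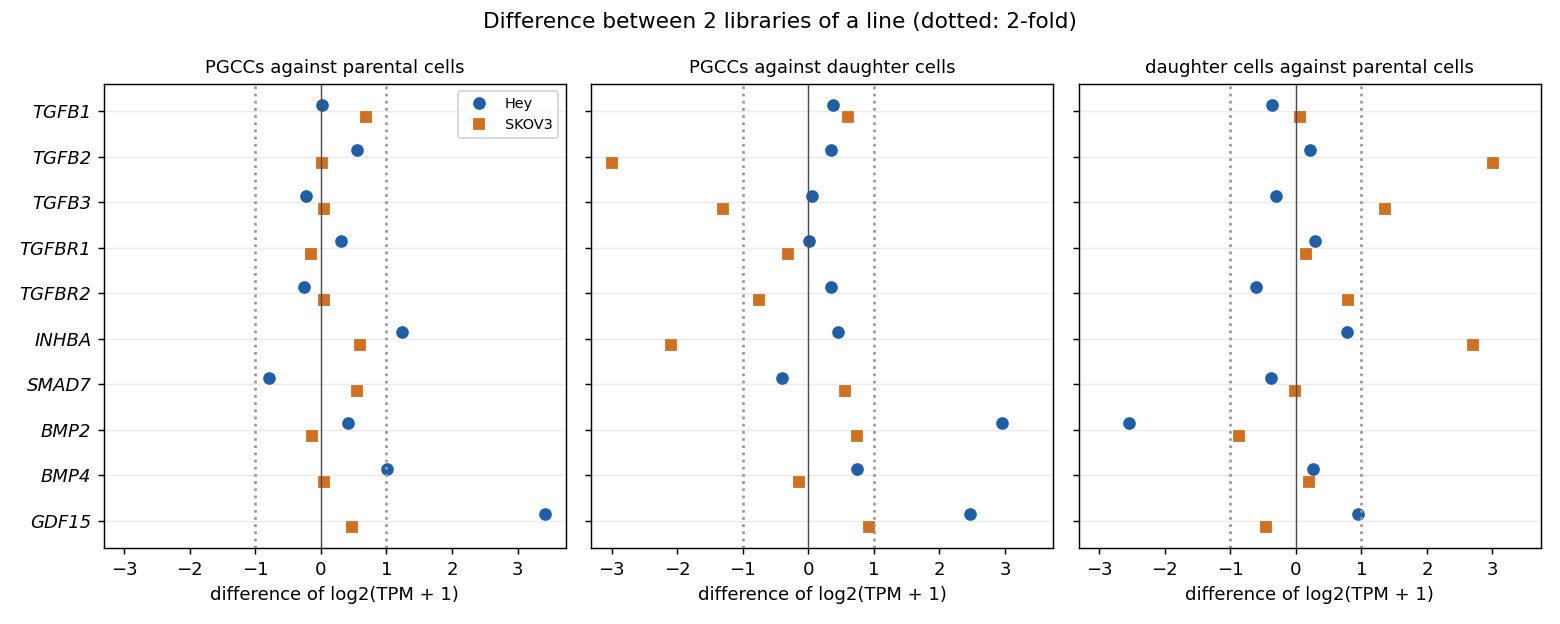
Difference of log2(TPM + 1) between 2 libraries of a line for each of the 10 genes, with Hey as blue circles and SKOV3 as orange squares, in 3 panels for the 3 comparisons, and dotted lines at 2-fold. The points past 2-fold are GDF15, INHBA, BMP4 and BMP2 in Hey and TGFB2, TGFB3 and INHBA in SKOV3.

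Of the 9 genes, 0 passed 2-fold in the same direction in both lines in any of the 3 comparisons, and 0 passed it in opposite directions. This count rests on the settings. BMP2 in daughter against parental cells passed in both lines with a pseudocount of 0.1 (-3.36 in Hey and -1.04 in SKOV3), median ratio scaling (-2.70 and -1.01), quantile normalization (-2.50 and -1.33) and the GC and length trend removed (-2.65 and -1.22). INHBA in PGCCs against parental cells passed in both with the pseudocount of 0.1 (1.25 and 1.21), and GDF15 in PGCCs against daughter cells with that pseudocount (2.50 and 1.20) and with quantile normalization (2.52 and 1.15). The share of all genes past 2-fold in the same direction in both lines was low, and a count of 0 of 9 lies near it. It was 0.834% higher and 0.834% lower for PGCCs against parental cells, 1.07% and 1.21% for PGCCs against daughter cells, and 1.19% and 0.387% for daughter against parental cells.

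Using the lines as repeats, limma with state and cell line as terms called 0 of the 9 genes at an adjusted p of 0.05 in each of the 3 comparisons. At an unadjusted p under 0.05, 1, 2 and 2 of the 9 passed for PGCCs against parental cells, PGCCs against daughter cells and daughter against parental cells, where 2.73%, 5.06% and 3.39% of all genes did. The single gene in the first comparison was GDF15, with a mean log2 difference of 1.94 (SE 0.668, limma adjusted p = 1). It was higher in PGCCs of both lines as deposited, but in SKOV3 the 0.48 became -0.38 with the GC and length trend removed. In both lines BMP2 was higher in PGCCs than in daughter cells, on average by 1.84 (SE 0.60, limma adjusted p = 0.908), and GDF15 by 1.69 (SE 0.668, limma adjusted p = 0.908). INHBA was higher in daughter than in parental cells of both lines by 1.74 (SE 0.619, limma adjusted p = 1), and BMP2 lower, by -1.71 (SE 0.60, limma adjusted p = 1). The fit had 2 residual degrees of freedom per gene from the disagreement between the lines, and eBayes moderation, which borrows spread from other genes, raised the total to 7.33.

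Between the lines the contrast was wide in every state. Hey was at least 2-fold above SKOV3 in parental cells for 3 of the 9 genes (TGFBR2, INHBA and GDF15) and below it for 2 (SMAD7 and BMP4), where 11.5% of all genes were higher and 24.2% lower in Hey. In PGCCs 5 genes were higher in Hey (TGFBR1, TGFBR2, INHBA, BMP2 and GDF15) and 1, SMAD7, was lower, with 13.4% and 29.6% of all genes. In daughter cells 3 were higher and 4 lower in Hey (TGFB2, SMAD7, BMP2 and BMP4), with 12.3% and 29.5% of all genes. TGFB2 was within 1.44-fold between the lines in parental cells and 12.1-fold higher in SKOV3 in daughter cells. These pairs are single libraries of different lines, and which features of the lines set the levels was not tested.

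In SKOV3, differences between PGCCs and parental cells moved with the GC content of the transcripts, with a Spearman correlation of 0.722 across 13468 genes, which are not independent replicates. In Hey the correlation was -0.0455. GDF15 transcripts have 62.0% GC, and the 1255 genes within 2 percentage points of it had a median SKOV3 difference of 0.88, above the 0.48 of GDF15. For TGFB1, at 60.8% GC, the median of such genes was 0.81 beside its own 0.68, and for SMAD7, at 56.4% GC, 0.52 beside 0.55. With the trend in GC content and length removed, the SKOV3 difference was -0.38 for GDF15, -0.09 for TGFB1 and 0.08 for SMAD7, while INHBA kept 0.65. In Hey, GDF15 was at 3.49 with the trend removed. The trend was weaker for the other SKOV3 comparisons, at 0.454 for PGCCs against daughter cells and 0.153 for daughter against parental cells, and TGFB2 and INHBA kept differences of 2.89 and 2.51 in daughter against parental cells with it removed.

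**Figure D4:**
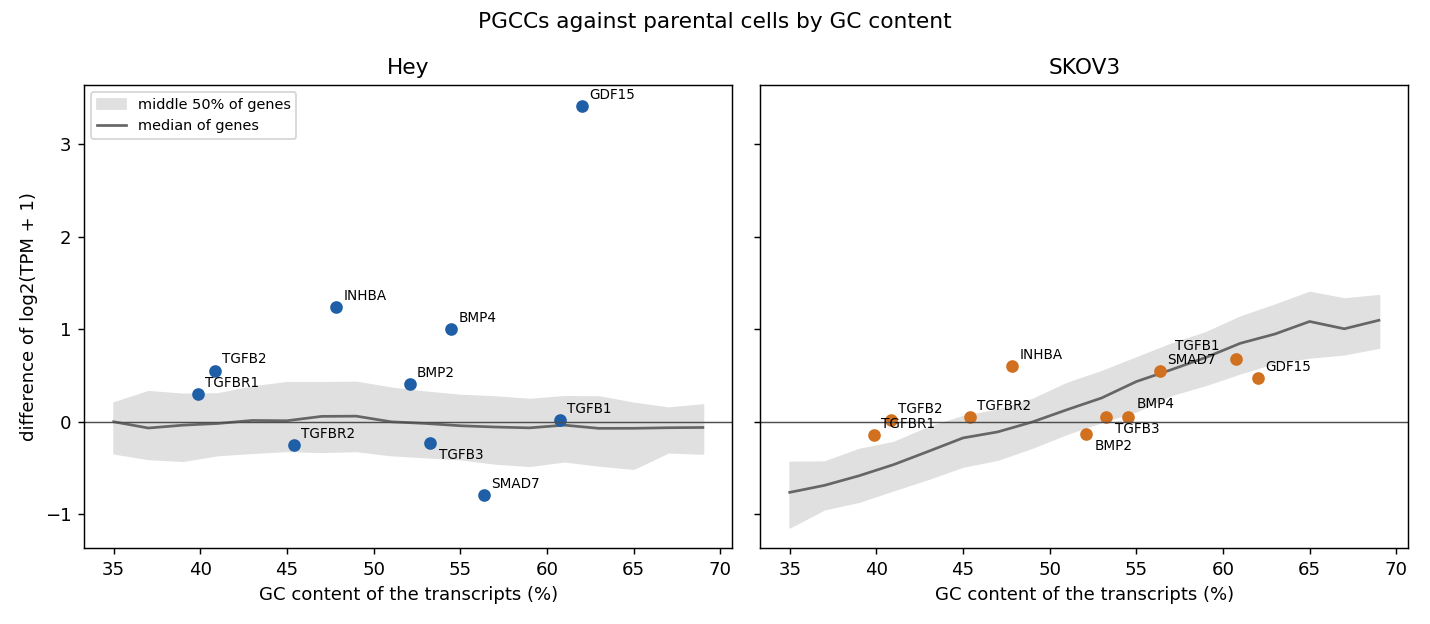
Difference of log2(TPM + 1) between PGCCs and parental cells against the GC content of the transcripts (%), in Hey (left) and SKOV3 (right), for the 10 genes (points), with the median (line) and the middle 50% (grey) of the 13468 genes with a known GC content. The grey band is flat in Hey and climbs with GC content in SKOV3, where GDF15 and TGFB1 lie below the line and INHBA lies above it.

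The wider pathway was described by 117 genes in 9 lists, of which 85 had a mean TPM of at least 1. In PGCCs compared with parental cells, 12 of the 85 were at least 2-fold higher and 4 lower in Hey, and 8 and 1 in SKOV3, with 0 genes shared between the lines. The shares of all genes were 7.67% and 5.22% in Hey, 9.94% and 4.96% in SKOV3, and 0.834% in each direction in both lines. In Hey PGCCs the list of secreted antagonists held 3 higher genes of 8: BAMBI, a pseudoreceptor (2.51), FST, which encodes the activin inhibitor follistatin (1.68), and GREM1, a BMP antagonist (1.35), and 1 lower, TWSG1 (-1.06). FST was at 3.41, 13.1 and 1.29 TPM in Hey parental cells, PGCCs and daughter cells and at most 0.0479 in SKOV3. Of 19 TGF-β target genes, 5 were higher in Hey PGCCs (ANGPTL4, IL11, TAGLN, CDKN1A and FN1, by 1.14 to 2.15) and 1 lower (CCN2, -1.16). IL11, at most 1.35 TPM outside Hey PGCCs, reached the filter only through that library. In SKOV3 PGCCs 1 of the 19 was higher, JUNB (1.20). The other calls included FURIN, the protease that cleaves the ligand precursors (1.33), and ACVRL1, a type I receptor gene (1.43). SKOV3 differences in this comparison moved with GC content, and those of the list genes were not corrected for it. The 564 genes with 62% to 64% GC had a median SKOV3 difference of 0.95.

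In daughter cells compared with parental cells, 18 of the 85 were higher and 10 lower in SKOV3, and 8 and 6 in Hey. The 18 include BMP5 and BMP6, which reached the filter only through SKOV3 daughter cells. The shares of all genes, which also stand behind the single lists, were 15.1% and 6.34% in SKOV3 and 6.31% and 3.73% in Hey. Beside TGFB2, 5 of the 9 SKOV3 genes for the storage and activation of latent TGF-β were higher and 0 lower. They were ITGB8, an integrin subunit gene whose product releases the ligand (4.05 to 91.5 TPM, a log2 difference of 4.19), THBS1 (46.0 to 369 TPM, 2.98), and the latent binding protein genes LTBP3 (2.61), LTBP2 (1.63) and LTBP4 (1.48). The median of that list was 1.48, beside 0.15 for all genes. Of 19 TGF-β target genes, 2 were higher (COL1A1, 2.37, and CCN2, 1.13) and 7 lower. The lower ones included TGFBI (446 to 10.4 TPM, -5.30), SNAI2 (94.0 to 5.76 TPM, -3.81), FN1 (27.2 to 1.5 TPM, -3.49) and PMEPA1 (54.0 to 4.74 TPM, -3.26). The other 10 target genes did not pass 2-fold, and the median of the 19 was -0.13. TGFB1 itself differed by 0.07 and LTBP1, another latent binding protein gene, by -0.81. COL1A1 is also a fibroblast marker, and the fibroblast marker sum was highest in this library, a measure whose part was not tested. SMAD3, a signal carrier of the branch, was also higher (1.60), while SMAD2, another carrier, went from 163 to 150 TPM. Of 10 other receptor and co-receptor genes above the filter, 0 were higher and 1 was lower. It was TGFBR3 (4.70 to 1.63 TPM, -1.12), which encodes the co-receptor on which TGF-β2 depends more.

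In Hey daughter cells THBS1 was the single one of the 9 storage genes past 2-fold (2.04), and 2 of the 19 target genes were higher and 2 lower. TGFBI (1.52) and PMEPA1 (2.13) were higher and JUNB (-1.92) and HMGA2 (-1.17) lower. The difference between the lines in these lists was not tested. JUNB lower and THBS1 higher were the 2 list genes called in both lines in this comparison, where 1.19% of all genes were higher and 0.387% lower in both. In PGCCs compared with daughter cells, FN1 (1.27 in Hey and 2.63 in SKOV3) and JUNB (2.71 and 2.58) were higher and THBS1 lower (-1.12 and -2.26) in both lines. The both-line shares of all genes there were 1.07% higher and 1.21% lower. In that comparison 14 of the 85 were higher and 6 lower in Hey, and 9 and 16 in SKOV3, with 8.13% and 9.95% of all genes in Hey and 9.25% and 14.6% in SKOV3. The 16 include BMP5, BMP6 and GDF9, which reached the filter only through SKOV3 daughter cells. The 14 include IL11, which did so only through Hey PGCCs. In limma, 0 of the 85 had an adjusted p under 0.05 in any comparison, and 1, 9 and 7 had an unadjusted p under 0.05 for PGCCs against parental cells, PGCCs against daughter cells and daughter against parental cells, where 2.73%, 5.06% and 3.39% of all genes did.

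**Figure D5:**
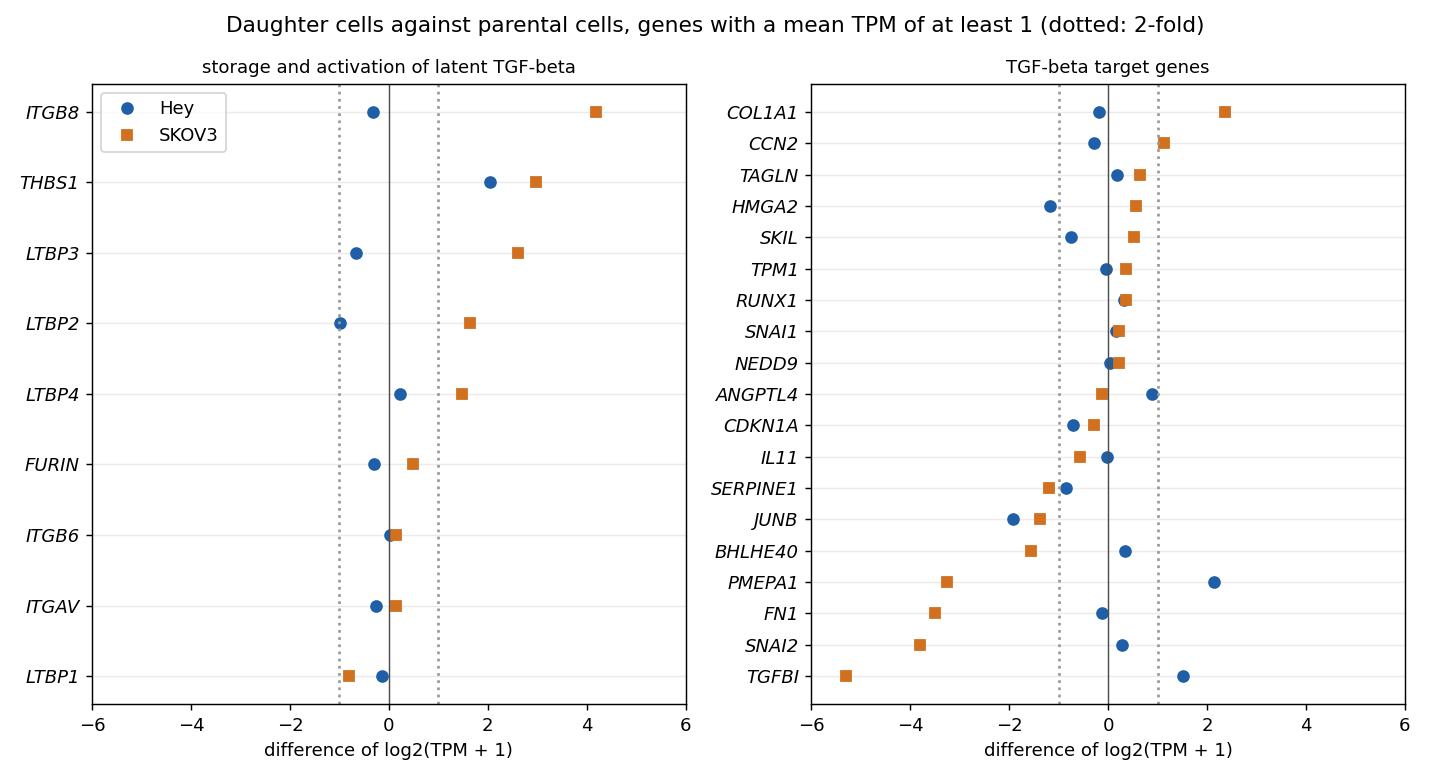
Difference of log2(TPM + 1) between daughter and parental cells for the 9 genes for the storage and activation of latent TGF-β (left) and the 19 TGF-β target genes (right) with a mean TPM of at least 1, in Hey (blue circles) and SKOV3 (orange squares), with dotted lines at 2-fold. In SKOV3, 5 storage genes lie right of the upper line and 7 target genes left of the lower one.

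For each list and line, the genes with the largest and smallest difference between PGCCs and parental cells are given here where not named above, and those under 1 in size did not pass 2-fold. Among storage genes they were THBS1 (0.92) and LTBP2 (-1.07) in Hey and ITGB6 (-0.61) as the smallest in SKOV3. Among other ligands they were GDF9 (0.36) and AMH (-0.64) in Hey and AMH (0.81) and GDF9 (-0.45) in SKOV3. The BMP type I receptor genes BMPR1B (0.86) and BMPR1A (-0.92) stood at the ends of the receptor list in Hey, and BMPR1A (-0.57) was the smallest in SKOV3. Among antagonists NBL1 (1.32) and TWSG1 (-0.76) were the ends in SKOV3. The signal-carrying SMAD genes ran from SMAD2 (0.32) to SMAD5 (-0.91) in Hey and from SMAD3 (0.88) to SMAD4 (-0.60) in SKOV3, so none passed 2-fold. Intracellular regulators ran from NEDD4L (0.87) to TGIF2 (-0.54) in Hey and from TGIF1 (0.82) to PMEPA1 (-0.65) in SKOV3. The smallest target gene differences were TAGLN (-0.98) in SKOV3 and, for BMP targets, SMAD9 (-0.62) in Hey and ID4 (-1.01) in SKOV3, where ID3 (1.16) was the largest. In the stress list MDM2 was the largest in Hey (2.47) and the smallest in SKOV3 (-0.98), where TRIB3 was the largest (1.27). The SKOV3 differences of these list genes were likewise not corrected for the trend with GC content.

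Among other ligands of the family, 7 of 26 had a mean TPM of at least 1. Of these, 3 were higher and 0 lower in SKOV3 daughter than parental cells. Behind the counts given here, 15.1% of all genes were higher and 6.34% lower in SKOV3 daughter cells, and 6.31% and 3.73% in Hey. BMP5 went from 0.243 to 29.1 TPM (4.60), BMP6 from 0.819 to 8.37 (2.37) and INHBE from 0 to 1.29 (1.19), while BMP5 was listed at 0 in all 3 Hey libraries. Outside SKOV3 daughter cells BMP5 was at most 0.934 TPM and BMP6 at most 0.819. Both reached the filter only through that library, so the filter itself favoured their calls there and the count of 3 carries no weight. Of 11 BMP target genes, 2 were higher, near the share of all genes, and 2 lower in SKOV3 daughter cells. ATOH8 rose past 2-fold from 0.0168 to 10.3 TPM (3.47) and ID3 from 42.6 to 226 (2.38), while HEY1 differed by -1.16 and BAMBI by -1.01. In Hey daughter cells 2 of the 11 were higher than in parental cells, MSX2 (1.29) and BAMBI (1.14), and 1 was lower, ID1 (17.8 to 8.27 TPM, -1.02).

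The genes whose pattern over the 6 libraries was most like each of the 9 were found by Pearson correlation of log2(TPM + 1) among 10791 genes whose mean TPM reached 5. These values describe 6 libraries, of which 3 share each line, and carry no test. GDF15 was nearest to CSF3 (r = 0.989), which encodes the cytokine G-CSF and was at 4.39, 158 and 13.3 TPM in the Hey libraries and listed at 0 in SKOV3, to PTX3 (0.982), at 25.4, 342 and 51.0 in Hey, and to ZNF79 (0.977). BMP2 was nearest to CDCP1 (0.989), which was at 96.6, 109 and 0.266 TPM in Hey, and then to HLA-E (0.946) and GCNT2 (0.942). TGFB2 was nearest to SBF2-AS1 (0.999), LINC02365 (0.994) and ABCC2 (0.994), of which LINC02365 was at 63.8 TPM in SKOV3 daughter cells and at most 0.445 in the other libraries. ABCC2 was at 28.3 TPM there and at most 1.18 elsewhere. LINC02365 and ABCC2 thus reached the mean TPM of 5 only through the library where TGFB2 was high, and CSF3 only through Hey PGCCs, where GDF15 was high. Their correlations rest largely on 1 shared library. INHBA was nearest to STOM (0.997), CHIC2 (0.992) and PROCR (0.991), and TGFB1 to GATAD2A (0.988), TSPO (0.970) and CARD19 (0.967). TGFBR1 was nearest to RRM2B, LCOR and PUS3 (0.996 to 0.997) and TGFBR2 to RAB3B, DOCK4 and CCDC80 (0.997 to 0.998). SMAD7 was nearest to POLR1B, CPNE2 and TEDC2 (0.995 to 0.998) and BMP4 to RAB29 and NDUFC1 (both 0.996).

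All 10 are protein-coding genes, placed here by GENCODE release 44 on GRCh38. TGFB1 lies on chromosome 19 from 41301587 to 41353922 and GDF15 on the same chromosome from 18374731 to 18389176. TGFB2 lies on chromosome 1 from 218345336 to 218444619, TGFBR2 on chromosome 3 from 30606601 to 30694142, and INHBA on chromosome 7 from 41667168 to 41705834. TGFBR1 lies on chromosome 9 from 99104038 to 99154192, TGFB3 and BMP4 on chromosome 14 from 75958097 to 75983011 and from 53949736 to 53958761, SMAD7 on chromosome 18 from 48919853 to 48950965, and BMP2 on chromosome 20 from 6767686 to 6780246. Exons of genes on the opposite strand overlap those of TGFB1 (HNRNPUL1), TGFB2 (TGFB2-AS1, with TGFB2-OT1 on the same strand), TGFB3 (TGFB3-AS1), INHBA (INHBA-AS1) and BMP4 (ENSG00000287156). The strand setting of the libraries is not given in the sources used here, so reads of these pairs may not have been separated.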

How the data were processed

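RNA of 6 libraries was measured by sequencing. The authors quantified the reads with salmon v0.14.1 on the human transcriptome (hg38) after fastp and deposited TPM values, 1 per gene symbol and library. The step from transcripts to symbols, the annotation release and the strand setting are not given in the sources used here. TPM carries no counts, so depth and counting error are unknown.

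Differences within a line are of log2(TPM + 1), with a pseudocount of 1, and a gene was called at 1, a 2-fold change, among genes averaging 1 TPM or more. With 1 library per group there is no test within a line. The same values of all 14988 such genes were fitted in limma 3.58.1 (R 4.3.3) with state and cell line, an eBayes trend and Benjamini-Hochberg adjustment. It treats the lines as repeats. The GC and length trend was fitted by lowess (fraction 0.3, 2 passes). Steps ran in Python 3.11.15 with pandas 2.3.3 and statsmodels 0.14.6, and limma and the lowess step were tested on simulated data. Alternatives were a pseudocount of 0.1, no filter or a mean TPM of 5, median ratio scaling, quantile normalization, removal of mitochondrial genes or of the trend, and 1.5-fold and 3-fold thresholds.

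Named were all 10 genes, list genes called alike in both lines, the largest and smallest change of each list between PGCCs and parental cells, and the 3 nearest patterns of each gene. Other list genes and the motif TATAAA were named after their values were seen. The members and lists were chosen with earlier results of these data known. Some genes of the lists and patterns are not reported here. Promoter sequences are those of RefSeq on GRCh38.p14.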

Additional observations from a re-analysis of the deposited data

Results flagged for a closer look

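Some pathway genes, 7 of the 85 above the filter, passed 2-fold in opposite directions in the lines in the same comparison, and 0 of the 9 ligand, receptor and SMAD7 genes did. Of all 14988 genes, 4.67% did so in at least 1 of the 3 comparisons, with 2.84% for PGCCs against daughter cells (4 of the 85) and 1.45% for daughter against parental cells (4 of the 85). The difference between the lines was not tested, since each condition has 1 library. In PGCCs compared with daughter cells, COL1A1, a collagen gene and TGF-β target, differed by 1.10 in Hey and -2.89 in SKOV3 on the log2(TPM + 1) scale. In the same comparison TAGLN, an actin-binding target gene, differed by 1.83 and -1.62, and MDM2, a ubiquitin ligase gene, by 1.32 and -1.48. PMEPA1, a target gene whose product limits TGF-β signalling, went the other way, by -1.51 in Hey and 2.60 in SKOV3.

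In daughter cells compared with parental cells, PMEPA1 differed by 2.13 in Hey and -3.26 in SKOV3. TGFBI, which encodes a matrix protein induced by TGF-β, differed by 1.52 and -5.30. The pseudoreceptor gene BAMBI differed by 1.14 and -1.01, and INHBE, an activin subunit gene, by -1.21 and 1.19. In levels, TGFBI was at 45.9, 86.0 and 133 TPM in Hey parental cells, PGCCs and daughter cells and at 446, 237 and 10.4 in SKOV3.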

How the results depend on the processing

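No paired analysis was possible because all libraries carry the same replicate number, beyond the pairing of states within a line that the cell line term of limma makes. Without that term limma also called 0 genes, with 0, 1 and 0 at an unadjusted p under 0.05. Of 60 changes (10 genes, 6 comparisons), 12 were past 2-fold, 9 of them under every scaling, pseudocount and trend setting tried, and 41 were past it in none. The 12 include TGFB3, below the filter, in both SKOV3 comparisons with daughter cells. For PGCCs against parental, PGCCs against daughter and daughter against parental cells, 7.67%, 8.13% and 6.31% of all genes were higher in Hey. Lower there were 5.22%, 9.95% and 3.73%. In SKOV3, 9.94%, 9.25% and 15.1% were higher and 4.96%, 14.6% and 6.34% lower. The 12 are not read as exceeding these shares. The number of the 9 genes past the threshold in PGCCs against parental cells went from 3 to 1 at 3-fold in Hey, and from 0 to 1 with a pseudocount of 0.1 (INHBA, 1.21) and to 2 at 1.5-fold in SKOV3. In PGCCs against daughter cells of SKOV3 it went from 2 to 4 with quantile normalization and to 6 at 1.5-fold. In daughter against parental cells it went from 1 to 2 with a pseudocount of 0.1 or without mitochondrial genes and to 4 at 1.5-fold in Hey, and from 2 to 4 at 1.5-fold in SKOV3. Quantile normalization took BMP4 in Hey PGCCs to 0.69 and TGFB3 in SKOV3 to -0.92 (PGCCs against daughter cells) and 0.90 (daughter against parental cells). BMP2 in SKOV3 daughter against parental cells, -0.87 as reported, passed 2-fold at -1.04 with the pseudocount of 0.1, -1.01 with median ratio scaling, -1.33 with quantile normalization and -1.22 with the trend removed. Median ratio scaling moved the median of all genes in that comparison from 0.15 to -0.02. limma called 0 of the genes in its 5 alternatives as well (smallest adjusted p 0.824 to 1), with 0 to 2 at an unadjusted p under 0.05.

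Each condition is 1 library, so no within-line difference has an error, and differences between single clones and between conditions cannot be told apart. Low TPM values such as those of TGFB3, of BMP4 in Hey and of INHBA in SKOV3 parental cells and PGCCs rest on an unknown number of reads.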

Other observations

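Some other pathway genes separated the lines or single libraries. ID2, a BMP target gene, was at 1.54, 5.46 and 0.979 TPM in Hey parental cells, PGCCs and daughter cells and at 30.6, 42.9 and 32.4 in SKOV3. SMAD6, the inhibitory SMAD of the BMP branch, was at 0.0961 to 0.276 TPM in the Hey libraries and at 13.8 to 22.7 in SKOV3, and ENG, a TGF-β co-receptor gene, was at 85.5 to 154 TPM in Hey and at most 0.0960 in SKOV3. Both genes separated the lines in every state. BMP7, below the filter with a mean of 0.774 TPM, was at 4.51 TPM in SKOV3 daughter cells and at most 0.0650 in the other 5 libraries. SMURF1, which encodes a ubiquitin ligase that targets receptors and SMADs, was at 8.69, 10.6 and 39.3 TPM in Hey and at 12.6, 15.2 and 21.2 in SKOV3, and SMURF2 at 247, 205 and 152 in Hey and 44.9, 40.7 and 123 in SKOV3.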
